A study of Mus musculus with 12 samples.

Results

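Expression of 10 genes of the circadian clock, Arntl, Clock, Npas2, Per1, Per2, Per3, Cry1, Nr1d1, Dbp and Tef, was examined in mouse aorta on 12 one-colour microarrays. The genes were found by the gene names in the array files, which gave 12 of the 55681 probes, and all 10 were among the 22761 genes tested. The 4 groups, with 3 arrays each, were formed by genotype (WT or smSocs3-KO) and challenge (before it, or after 3 days of BAPN + AngII, called day 3). All mice were male and carried the Socs3 fl/fl allele, a conditional allele of an inhibitor of cytokine signalling, on a background labelled 129S5/SvEvBrd, C57BL6 and SJL. The floxed line had been backcrossed to C57BL/6J for 3 generations. The smSocs3-KO mice also carried SM22-Cre, a recombinase driven by a smooth muscle promoter, and the WT mice were littermates without it. The challenge was BAPN, an inhibitor of collagen and elastin crosslinking, at 150 mg/kg/day together with AngII, a pressor hormone, at 1000 ng/kg/min from osmotic minipumps. The study whose methods are cited here combined these arrays, which it credits to an earlier report, with others. For its animals in general it states an age of 11 to 14 weeks, and for RNA it took the 10 mm of aorta above the right renal artery. It implanted the pumps under isoflurane anaesthesia, and none of the 4 groups had pumps without BAPN and AngII. The hour of day at which tissue was taken is not given in the sources used here. Differences between day 3 and before therefore cannot be told apart from differences in that hour or from the implantation of the pumps.

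In the circadian clock, Arntl (also called Bmal1) pairs with Clock or its relative Npas2 to activate genes through E-box elements. Among these genes are the Period and Cryptochrome repressors, which feed back on the activators over about a day, and Nr1d1 (Rev-erb alpha), which represses Arntl through a response element shared with the Ror receptors. Dbp and Tef are PAR bZip transcription factors that lie downstream of the activators, bind D-box elements and pass the rhythm on to other genes. Transcripts of the activators and of Dbp and the Per genes peak at nearly opposite times of day in most peripheral tissues, blood vessels included.

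To show the elements through which these genes are connected, promoter windows from 250 bases before to 50 bases after each start site were taken from RefSeq (GRCm38.p6). Of the 10 genes, 9 had a window, 14 windows in all, and Per2 was not among them. Both strands were searched for the E-box CACGTG, its variant CACGTT, the D-box (TTATGTAA, TTATGCAA or TTACGTAA), the cyclic AMP response element TGACGTCA and the RORE. The 30 bases around the matches are given 5′ to 3′ on the strand of the gene, with the matched motif in capitals and its position counted from the start site. The E-box variant of Cry1, at -79, is not shown.
Arntl, RORE at 26, chr7:113207527-113207556, plus strand: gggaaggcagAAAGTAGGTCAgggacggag
Per1, E-box at -166, chr11:69098771-69098800, plus strand: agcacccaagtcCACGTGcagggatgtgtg
Per1, D-box at -24, chr11:69098914-69098943, plus strand: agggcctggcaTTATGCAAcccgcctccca
Per3, D-box at -205, chr4:151044852-151044881, minus strand: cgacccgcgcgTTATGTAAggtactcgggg
Per3, D-box at -158, chr4:151044805-151044834, minus strand: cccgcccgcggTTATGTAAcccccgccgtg
Cry1, E-box at -60, chr10:85185097-85185126, minus strand: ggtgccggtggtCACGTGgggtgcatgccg
Nr1d1, E-box variant at -28, chr11:98775388-98775417, minus strand: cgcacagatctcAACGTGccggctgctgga
Tef, E-box at -127, chr15:81802534-81802563, plus strand: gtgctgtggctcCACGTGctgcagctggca
Tef, E-box of a second window at -138, chr15:81811264-81811293, plus strand: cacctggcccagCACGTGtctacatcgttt

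An E-box was found in windows of Per1, Cry1 and Tef, that is in 3 of the 9 genes, and 7.15% of all 32851 windows held one. The E-box variant was found in Cry1 and Nr1d1, the D-box in Per1 and Per3 and the RORE in Arntl alone, and 4.68%, 1.78% and 0.384% of all windows held these motifs. The cyclic AMP response element was found in 0 of the 9 genes and in 1.79% of all windows. These matches describe letters in short windows and say nothing about binding in the aorta.

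Values are log2 signals relative to the 75th percentile of the same array, so that 0 is the signal that 75% of probes do not exceed, and probes are not compared with each other in level. Between 55.4% and 61.2% of spots were well above background per array, none was saturated, and the correlation between arrays of a group across genes lay between 0.964 and 0.992, where genes are not independent replicates. Defining smooth muscle markers were present in all groups, with 8 of 8 genes well above background on each array. Socs3 itself was not lower under the smSocs3-KO label (log2 difference from WT 0.49 before challenge and 1.52 at day 3), and directions for the genotype therefore refer to the arrays labelled smSocs3-KO. Slide 1 held the 6 WT arrays and replicate 1 of smSocs3-KO before challenge, and slide 2 held the remaining 5, so that genotype and slide can hardly be told apart. The labels do not say that replicates came from separate animals, and p-values then measure only the spread between these samples. Because bulk tissue was measured, fewer cells of a type and less RNA per cell cannot be told apart.

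Of the activators, Npas2 was lower on the 6 day 3 arrays than on any array before challenge of its genotype, narrowly so in WT. Arntl was lower on some day 3 arrays and not on others, and Clock lay just below its earlier values only under the smSocs3-KO label. The log2 signal of Arntl (probe at chr7:120457261-120457320, mm9) was 0.73, 1.44 and 1.60 in WT before challenge (replicates 1, 2 and 3, the order used throughout) and -1.34, 1.19 and 1.35 in WT at day 3 (replicates 1, 3 and 4). The arrays labelled smSocs3-KO gave 0.61, 2.16 and 1.60 before challenge (replicates 1, 3 and 4) and -2.96, -0.81 and 1.06 at day 3 (replicates 2, 3 and 5). WT day 3 replicate 1 and smSocs3-KO day 3 replicates 2 and 3 thus lay below all other arrays, whereas the remaining 3 day 3 arrays lay within the range before challenge. Clock, the partner of Arntl (chr5:76641377-76641436, mm9), ran from 0.93 to 1.34 in WT before challenge and was 0.49, 1.004 and 1.33 in WT at day 3. On the smSocs3-KO arrays Clock was between 0.952 and 1.33 before challenge and 0.092, 0.49 and 0.948 at day 3, so that replicate 5 lay only just below the earlier range. WT day 3 replicate 1 and smSocs3-KO day 3 replicates 2 and 3 again had the lowest values. Npas2, which can replace Clock (chr1:39418941-39419000, mm9), ran from -0.98 to -0.56 in WT before challenge and was -4.21, -1.01 and -1.80 in WT at day 3. Its smSocs3-KO values were -0.32, -1.29 and -1.30 before challenge and -5.27, -5.24 and -2.51 at day 3, where replicates 2 and 3 were not well above background. Npas2 was well above background on the other 10 arrays, and its day 3 arrays did not overlap with those before challenge in either genotype. In WT the margin was narrow, -1.014 against -0.9785.

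Among the repressors, Per2 and Per3 were highest on the same 3 arrays, those with the lowest Arntl, and Per1 had only 1 of these arrays among its 3 highest. Per2 (chr1:93313046-93313105, mm9) had a log2 signal of -0.70, -1.82 and -1.15 in WT before challenge and 0.30, -2.59 and -1.26 in WT at day 3. Its values on smSocs3-KO arrays were -1.03, -1.78 and -1.86 before challenge and 0.89, 1.11 and -0.012 at day 3, so that the WT groups overlapped and the smSocs3-KO groups did not. Per3 (chr4:150379256-150379315, mm9) was between -2.94 and -2.03 in WT before challenge and -0.94, -3.71 and -3.20 in WT at day 3. On smSocs3-KO arrays Per3 was -1.59, -4.02 and -3.28 before challenge and -0.53, -0.65 and -2.01 at day 3, with replicate 1 before challenge above replicate 5 at day 3. Per1, which also responds to glucocorticoids and other acute signals (chr11:68923364-68923423, mm9), was 3.83, 3.32 and 3.26 in WT before challenge and 3.36, 1.99 and 3.10 in WT at day 3. The smSocs3-KO arrays gave 4.17, 1.78 and 3.34 for Per1 before challenge and 4.19, 4.07 and 4.18 at day 3. The 3 smSocs3-KO day 3 arrays agreed closely for Per1 (SD 0.068), although they were far apart for Arntl (SD 2.01). A second Per1 probe, for another transcript, was well above background on 0 of 12 arrays and was left out.

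Cry1 (chr10:84594731-84594790, mm9), was well above background on 4 arrays, WT day 3 replicate 1 (-3.82) and the smSocs3-KO day 3 replicates 2, 3 and 5 (-3.97, -3.47 and -4.10). Cry1 entered the test only through the latter group, in which it therefore had to be high, and its values on the other 8 arrays, from -6.43 to -4.51, are only bounds, so that Cry1 is left out of the counts and medians given below for the other 9 clock genes. Under the smSocs3-KO label Cry1 was at least 1.57-fold higher at day 3 than before challenge, a bound that compares the day 3 mean with the lowest signal well above background on each array before challenge, or the signal of Cry1 itself where higher (limma adjusted p of the measured difference 0.207). Nr1d1 (chr11:98630526-98631028, mm9) was 1.55, 1.29 and 1.74 in WT before challenge and 0.23, 0.18 and 1.80 in WT at day 3. With the smSocs3-KO label Nr1d1 was 1.32, 0.50 and 1.05 before challenge and 0.34, 0.21 and 0.63 at day 3. Nr1d1 was low on WT day 3 replicate 3 as well, where Arntl was not, whereas WT day 3 replicate 4 was the highest of the 12 arrays and smSocs3-KO day 3 replicate 5 lay within its range before challenge.

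The PAR bZip genes were highest where the activators were lowest. Dbp was measured by 2 probes that differed by at most 0.24 on any array, and the one with the higher mean (chr7:52965322-52965381, mm9) gave 4.12, 3.02 and 3.12 in WT before challenge and 5.76, 3.26 and 3.87 in WT at day 3. On arrays labelled smSocs3-KO, Dbp was 3.39, 1.84 and 2.32 before challenge and 5.91, 5.08 and 2.37 at day 3, where replicate 5 stayed within the range before challenge. Tef (chr15:81657221-81657280, mm9) was 5.36, 4.88 and 5.10 in WT before challenge and 5.73, 4.36 and 4.75 in WT at day 3. For the smSocs3-KO label, Tef was between 4.28 and 5.10 before challenge and 6.04, 6.50 and 5.200 at day 3, without overlap.

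**Figure D1:**
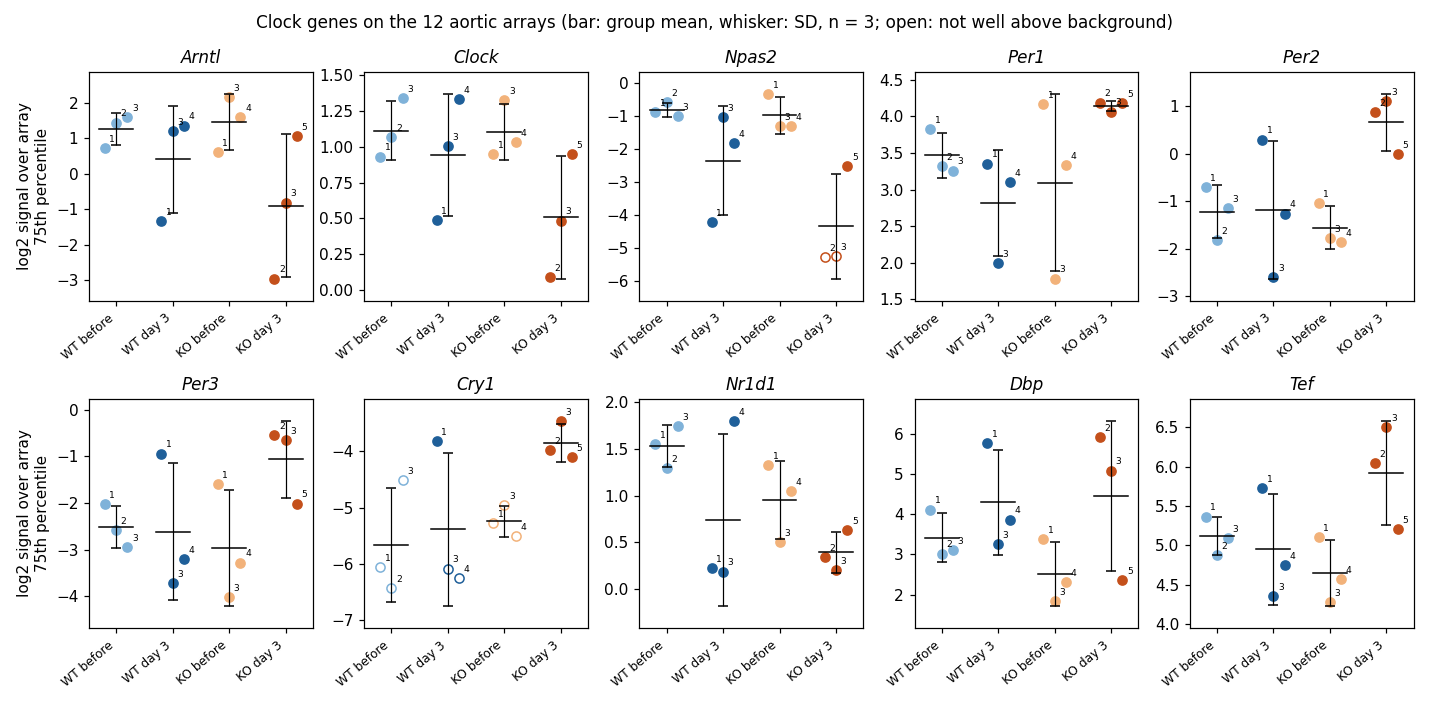
Log2 signal of each clock gene relative to the 75th percentile of its array (y axis) in the 4 groups (x axis), with 1 point per array labelled with its replicate, a bar for the mean, a whisker for the SD (n = 3) and open points where the signal was not well above background. WT day 3 replicate 1 and smSocs3-KO day 3 replicates 2 and 3 are the lowest arrays for Arntl, Clock and Npas2, and the 3 smSocs3-KO day 3 arrays lie together for Per1 (4.07 to 4.19).

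In the WT challenge response, no clock gene passed at an adjusted p under 0.05 with limma (0 of 10, and 0 at an unadjusted p under 0.05), against 4.68% of all genes tested (26.6% unadjusted). The median log2 difference of the 9 genes other than Cry1 was -0.17, and that of all genes was -0.020. None was past the study's threshold for its arrays, an unadjusted p under 0.01 with a fold change above 4 or below 0.25 (1.28% of all genes). Npas2 had the largest difference, -1.54 (SE 0.84, limma adjusted p = 0.267), and was the only clock gene whose 2 groups did not overlap, against 35.3% of all genes tested. Arntl differed by -0.86 (95% interval -2.95 to 1.23), Dbp by 0.87 (-1.06 to 2.81) and Per2 by 0.041 (-1.32 to 1.40), intervals that leave room for changes of several fold. Leaving out WT day 3 replicate 4 gave a fall of Nr1d1, with a difference of -1.32 (limma adjusted p = 0.0086), compared with -0.79 (adjusted p = 0.221) with all arrays. Without WT day 3 replicate 1 the difference of Arntl was 0.016 and that of Npas2 was -0.60.

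On the arrays labelled smSocs3-KO, the challenge responses of the clock genes were larger in median size than in WT, without a call in the interaction given below. None passed at an adjusted p under 0.05 with limma (0 of 10, against 2.45% of all genes). At an unadjusted p under 0.05 there were 7 of the 9 genes other than Cry1 (23.8% of all genes). In this comparison the groups of 4 of these 9 genes did not overlap, against 28.1% of all genes. Npas2 and, by a narrow margin (0.948 against 0.952), Clock were lower at day 3 on all arrays, and Per2 and Tef were higher. The median of the 9 absolute log2 differences was 1.898 (0.34 for all genes), and in WT it was 0.65 (0.36 for all genes). The log2 difference of Npas2 was -3.37 (SE 0.84, limma adjusted p = 0.0621) and that of Per2 was 2.22 (SE 0.62, adjusted p = 0.0767). For Npas2 only 1 of the 3 arrays at day 3 was well above background, and with the other 2 set to the lowest signal well above background on their arrays it was at least 8.67-fold lower than before challenge. These 2 genes were past the study's threshold, which 1.63% of all genes passed. Next came Tef at 1.27 (SE 0.40, limma adjusted p = 0.101), Arntl at -2.36 (SE 0.95, 0.168), Per3 at 1.90 (SE 0.76, 0.170) and Dbp at 1.94 (SE 0.88, 0.210). Clock (-0.59), Per1 (1.05) and Nr1d1 (-0.57) had limma adjusted p between 0.203 and 0.391. The number of genes past the study's threshold depended on single arrays, since it was 4 without smSocs3-KO day 3 replicate 5, 0 without replicate 2 and 0 without replicate 3 of that group, and 1 without replicate 3 or 4 before challenge.

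**Figure D2:**
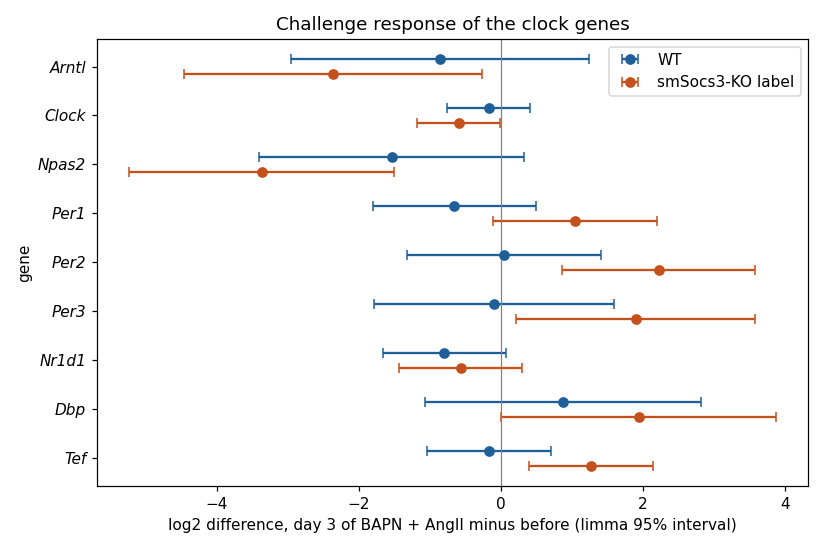
Log2 challenge response, day 3 of BAPN + AngII minus before (x axis), for the 9 clock genes other than Cry1 (y axis) in WT (blue) and under the smSocs3-KO label (orange), with limma's 95% intervals. The intervals under the smSocs3-KO label lie apart from 0 for 7 of the 9 genes before adjustment for multiple tests, and those in WT include 0 for all 9.

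Averaged over both genotypes, Npas2 was lower at day 3 than before, with a log2 difference of -2.45 (SE 0.60, limma adjusted p = 0.0178). Neither the hour of collection nor the pump implantation can be told apart from the challenge in this difference. Npas2 was lower on 6 of 6 day 3 arrays than on any array before challenge of its genotype, in WT by a narrow margin (-1.014 against -0.9785). The fall of Npas2 was the only call among the 10 clock genes, against 22.7% of all genes. At an unadjusted p under 0.05 there were 5 (39.1% of all genes), namely Arntl (-1.61), Npas2, Per2 (1.13), Nr1d1 (-0.68) and Dbp (1.41). The call of Npas2 held in each of the 21 alternatives in which the gene could be tested, with limma adjusted p from 0.011 to 0.0445. Of its 6 day 3 values, 2 were not well above background. Past the study's threshold Npas2 was likewise the only clock gene (1.27% of all genes).

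The responses of both genotypes were compared by the interaction, in which limma called 0 of 10 clock genes and 0% of all genes at an adjusted p under 0.05. Unadjusted, 3 clock genes passed (5.33% of all genes), with the response under the smSocs3-KO label above that in WT by 1.70 for Per1 (SE 0.74), 2.18 for Per2 (SE 0.87) and 1.43 for Tef (SE 0.56), each with an adjusted p of at least 0.919. None passed the study's threshold (0.308% of all genes). For Arntl the interaction was -1.51 (95% interval -4.46 to 1.45) and for Dbp 1.06 (-1.68 to 3.80), so that neither a like nor an unlike response could be told at 3 arrays per group.

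Before challenge no clock gene was called between the genotypes. Limma called 0 of 10 (0.0264% of all genes), 0 also passed unadjusted (4.4% of all genes), and the differences between the smSocs3-KO label and WT ran from -0.904 for Dbp to 0.203 for Arntl over the 9 genes other than Cry1, which was well above background on 0 of these 6 arrays. No clock gene was without overlap, against 11.1% of all genes. At day 3 limma again called 0 of 10 (1.11% of all genes), and 4 of the 9 genes other than Cry1 passed unadjusted (16.2% of all genes). Per1 was the only clock gene without overlap (20.5% of all genes), higher under the smSocs3-KO label by 1.33 (SE 0.52, limma adjusted p = 0.248). The other 3 were Per2 at 1.85, Tef at 0.97 and Npas2 at -1.996, where 2 of the 3 smSocs3-KO values of Npas2 were not well above background and the difference was at least 3.35-fold when these were set to the lowest signal well above background. None was past the study's threshold before challenge (0.242% of all genes) or at day 3 (1.11%). With the slide as a block, in which the slide effect is estimated from the smSocs3-KO arrays before challenge alone, the difference at day 3 was 2.94 for Per1, 2.64 for Per2 and 3.61 for Per3, with limma adjusted p of at least 0.225.

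The spread between arrays was large for most of these genes. The highest array of Arntl stood 5.12 above the lowest on the log2 scale, a range that 1.08% of all genes exceeded, and the range was 4.95 for Npas2 (1.31%), 4.07 for Dbp (2.78%), 3.71 for Per2 (3.86%) and 3.49 for Per3 (4.83%). At the other end were Nr1d1 with 1.61 (34.4%) and Clock with 1.25 (50.7%), near the median of all genes, 1.26. Within groups the residual SD was 1.34 for Arntl, 1.24 for Dbp, 1.19 for Npas2 and 1.07 for Per3, compared with a median of 0.32 over all genes. Larger residual SDs were found in 0.47%, 0.712%, 0.931% and 1.77% of genes. The groups of 3 at day 3 were the wider ones for Arntl, with an SD of 1.51 in WT and 2.01 under the smSocs3-KO label, compared with 0.46 and 0.78 before challenge. For Dbp the SD was 1.30 and 1.85 at day 3 and 0.61 and 0.79 before challenge. The smSocs3-KO groups of Per1 (SD 1.21 before challenge and 0.068 at day 3), Per3 (1.25 and 0.82) and Nr1d1 (0.42 and 0.22) went the other way, although the WT groups of these genes did not.

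When each gene was set against its own mean over the 12 arrays, most of this spread ran in 1 direction across the genes. On smSocs3-KO day 3 replicate 2, Arntl deviated by -3.5, Npas2 by -3.2 and Clock by -0.8, while Dbp deviated by 2.2, Per3 by 1.8 and Per2 by 1.7. WT day 3 replicate 1 had Arntl at -1.9, Npas2 at -2.1 and Clock at -0.4, and Dbp at 2.1, Per3 at 1.4 and Per2 at 1.1. The opposite arrangement was found before challenge on smSocs3-KO replicate 3, with Arntl at 1.6 and Clock at 0.4 but Dbp at -1.8, Per3 at -1.7 and Per1 at -1.6. Day 3 arrays of 1 group could lie on both sides, since smSocs3-KO replicate 5 had Arntl at 0.5 and Dbp at -1.3 next to Per1 at 0.8 and Per2 at 0.8.

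**Figure D3:**
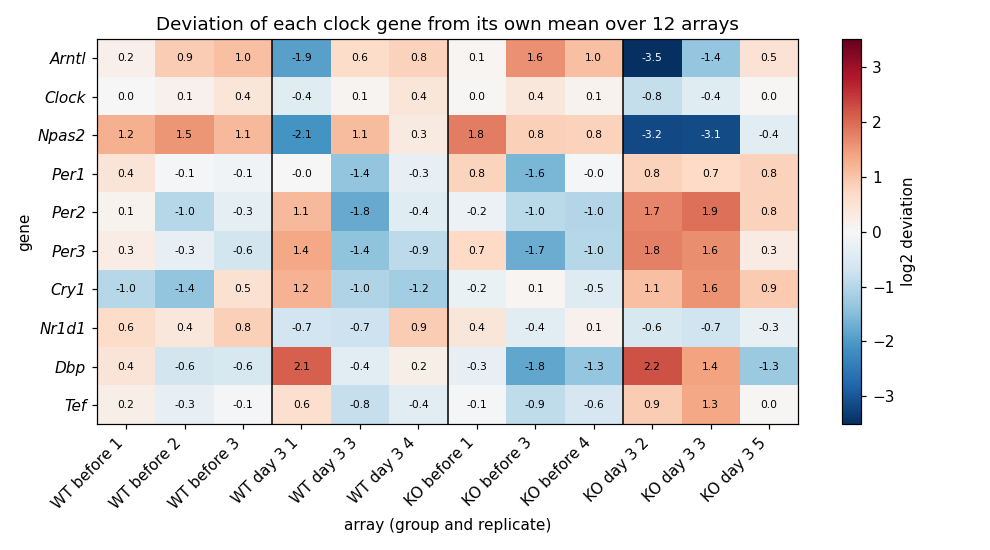
Log2 deviation of each clock gene (y axis) from its own mean over the 12 arrays, by array (x axis, groups separated by black lines), with red above and blue below the mean. Arntl, Clock and Npas2 are blue and Per2, Per3, Dbp and Tef red on WT day 3 replicate 1 and smSocs3-KO day 3 replicates 2 and 3, and smSocs3-KO replicate 3 before challenge shows Arntl at 1.6 with Dbp at -1.8.

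Pairs of clock genes were then correlated over the 12 arrays, 45 pairs in all, with permutation tests (100000 resamples) adjusted over the pairs. Pearson's r passed at an adjusted p under 0.05 in 31 pairs. The 9 pairs with Cry1 rest on arrays on which it was not well above background and are left out of the counts that follow here. Of the remaining 36 pairs, 26 passed by Pearson's r, 14 positive and 12 negative, 20 by Spearman's rho and 18 by both. All 3 pairs within the activators were positive, all 10 pairs among Per1, Per2, Per3, Dbp and Tef were positive (9 passed by Pearson's r), and all 15 pairs between these sets were negative (12 passed). Nr1d1 stood apart, with 2 of 8 pairs past the threshold and r from -0.36 to 0.64. Because the 12 arrays hold 4 groups and a few arrays lie far from the rest, each pair was also examined within the 6 arrays before challenge and within the 6 at day 3.

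Arntl and Dbp had r = -0.91 and rho = -0.88 over the 12 arrays (permutation test, adjusted p = 0.000225 and 0.00278). The relation remained at r = -0.84 without the 2 arrays farthest from the median of Arntl, at -0.95 on residuals from the group means and at -0.92 over the 7 arrays of slide 1. Within the 6 arrays before challenge r was -0.87 (exact permutation p = 0.0264, adjusted 0.129), and within the 6 at day 3 it was -0.89 (adjusted 0.0937). The 5 arrays of slide 2 were not enough for a separate r. For Arntl and Per3 the values were similar, with r = -0.87 and rho = -0.90 over the 12 arrays (permutation test, adjusted p = 0.000225 and 0.00214), -0.89 without the 2 farthest arrays, -0.98 before challenge (exact permutation p = 0.00139, adjusted 0.0312) and -0.87 at day 3 (adjusted 0.0937). Dbp and Tef had r = 0.98 before challenge (exact permutation p = 0.00139, adjusted 0.0312), and this p is the smallest that 6 arrays can give. Among the 6 arrays before challenge, the negative r of Arntl with Per3 and the positive r of Dbp with Tef passed the adjusted test. The negative r of Arntl with Dbp did not. These 6 arrays hold both genotypes and both slides, and the 2 on slide 2 had the lowest Dbp, Tef and Per3. Over the 7 arrays of slide 1, r was -0.82 for Arntl with Per3 and 0.74 for Dbp with Tef.

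Some other pairs differed in sign between the sets of arrays. Arntl and Npas2 had r = 0.89 within day 3 (exact permutation adjusted p = 0.101) but -0.74 before challenge (exact permutation p = 0.0764, adjusted 0.191), and Npas2 and Per3 had -0.98 at day 3 (adjusted 0.0208) but 0.86 before challenge (exact permutation p = 0.0333, adjusted 0.129). Nr1d1 and Dbp had -0.31 over all arrays (permutation test, adjusted p = 0.333) but 0.82 before challenge (exact permutation p = 0.0431, adjusted 0.129). In all, the sign before challenge and at day 3 was the same in 22 of the 36 pairs. After adjustment by exact permutation 2 of these pairs passed within the arrays before challenge and 7 within those at day 3, and no test of the difference between the conditions was made.

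**Figure D4:**
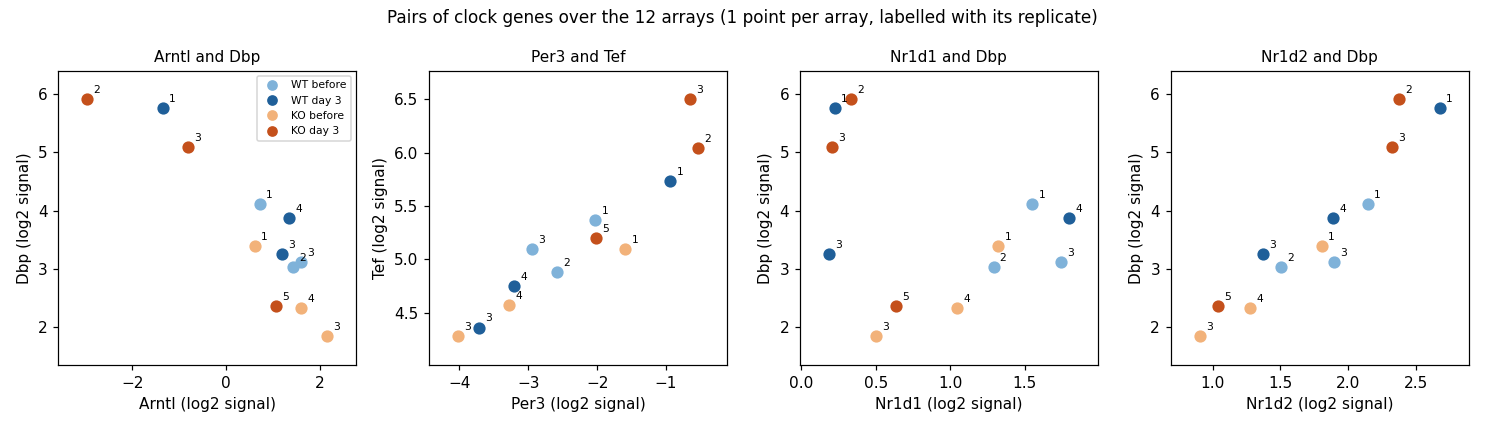
Log2 signals of pairs of genes over the 12 arrays (1 point per array, labelled with its replicate and coloured by group), with Dbp against Arntl, Tef against Per3, Dbp against Nr1d1 and Dbp against Nr1d2. Dbp falls as Arntl rises (r = -0.91) and rises with Nr1d2 (r = 0.94), whereas 4 arrays with Nr1d1 below 0.4 include the 3 highest and a middle value of Dbp.

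The genes whose pattern was most like those of Arntl and Dbp were sought among 12090 other named genes that were well above background on all 12 arrays, with Pearson's r over the 12 arrays as the measure of likeness. For Dbp the highest was Nr1d2 (Rev-erb beta, the relative of Nr1d1), with r = 0.94, followed by Apoa2 (0.91), an apolipoprotein, Hspb7 (0.85), a small heat shock protein, Aoah (0.85) and Fam125a (0.85). The lowest r with Dbp was found for Cgnl1 (-0.94), Agtr1a (-0.92), the type 1 receptor of AngII, Nfil3 (-0.92), a bZip repressor that competes with Dbp for D-boxes, Ceacam2 (-0.91) and Pcdh12 (-0.89). For Arntl the highest were Esco1 (0.94), a cohesin acetyltransferase, Cgnl1 (0.94), a junction protein, Crybg3 (0.93), Ldlrad3 (0.93) and Snx18 (0.89), and the lowest were Gcnt1 (-0.91), Apoa2 (-0.88), Bicc1 (-0.85), Slfn3 (-0.85) and Cd86 (-0.85). Cgnl1 and Apoa2 thus appeared at both ends in opposite order. On residuals from the group means, r with Dbp was 0.97 for Nr1d2, -0.88 for Nfil3 and -0.88 for Agtr1a. The AngII receptor Agtr1a differed by -1.004 in the mean challenge response (SE 0.38, limma adjusted p = 0.0774).

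Partners of the clock genes were examined as a list of 16 genes, of which 15 were tested and Ciart was not kept. In WT limma called 0 of 15 at day 3 (4.68% of all genes) and under the smSocs3-KO label 1 (2.45%), Bhlhe40 (Dec1), a repressor of the activators, with a difference of 1.95 (SE 0.37, adjusted p = 0.0313). The signal of Bhlhe40 was between -0.51 and -0.20 on the 6 arrays before challenge and 1.54, 1.21 and 0.47 in WT and 1.55, 0.74 and 2.36 under the smSocs3-KO label at day 3, so that all day 3 arrays lay above all earlier ones. Bhlhe40 was highest on smSocs3-KO day 3 replicate 5, where Arntl and Dbp were within the range before challenge. In the mean challenge response 3 of 15 partners were called, a share near the 22.7% of all genes. There 2 partners rose, Bhlhe40 by 1.68 (SE 0.26, limma adjusted p = 0.00526) and Timeless, which also acts at replication forks, by 1.61 (SE 0.30, adjusted p = 0.0082), and 1 fell, Rora, an activating Ror receptor, at -0.61 (SE 0.18, adjusted p = 0.0325). The median of the 15 partners was 0.043 in this comparison, and that of all genes was -0.046.

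The partners of the PAR bZip and Rev-erb families had the same division of arrays as Dbp. Nr1d2 was 2.68 on WT day 3 replicate 1 and 2.38 and 2.32 on smSocs3-KO day 3 replicates 2 and 3, compared with 0.90 to 2.14 on the other 9 arrays. Hlf, the third PAR bZip gene, was 1.44, 2.196 and 1.71 on these arrays and -0.77 to 1.16 on the others. Nfil3 had its lowest values there, 2.01, 1.61 and 1.94, against 2.42 to 3.80 on the others, and its highest was on smSocs3-KO day 3 replicate 5. For none of them was a group difference called, with mean challenge responses of 0.36 for Nr1d2 and -0.89 for Nfil3 (limma adjusted p = 0.389 and 0.0772).

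**Figure D5:**
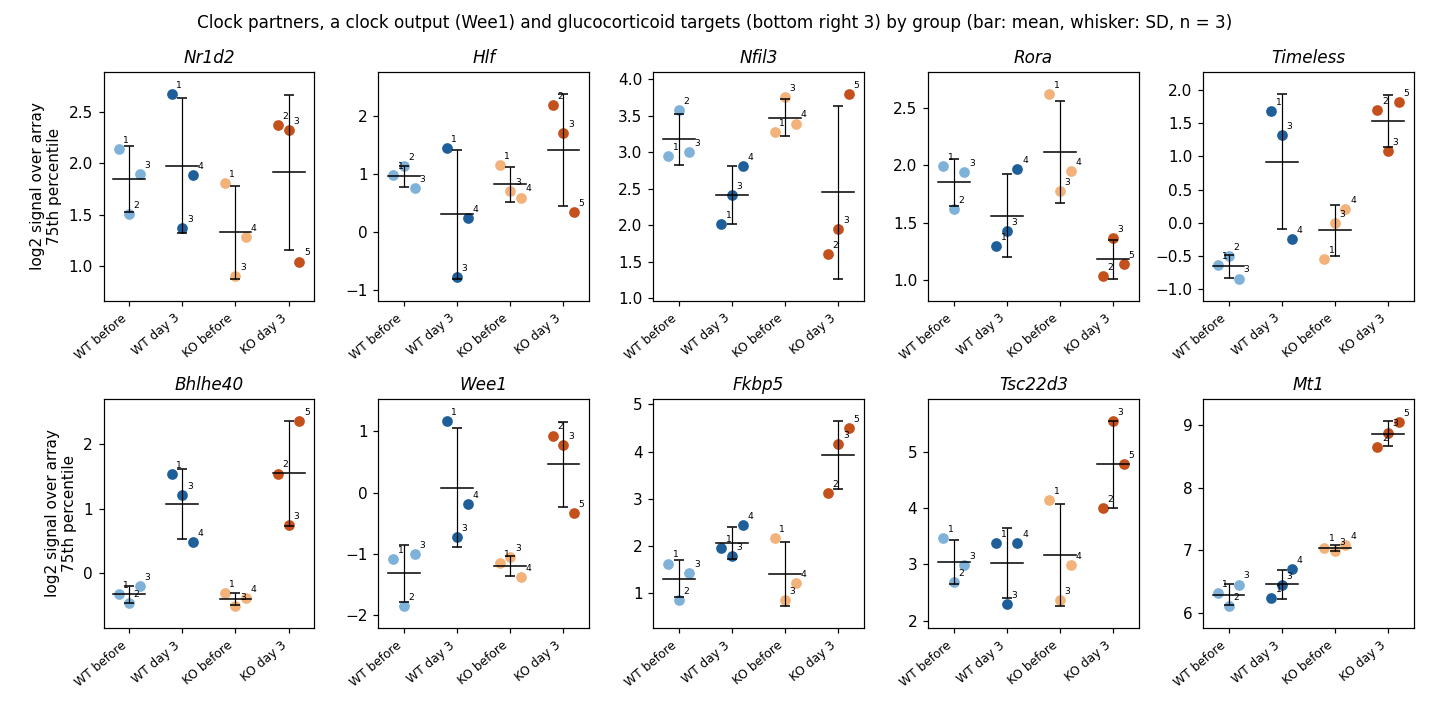
Log2 signal relative to the 75th percentile of the array (y axis) of clock partners, the output gene Wee1 and the glucocorticoid targets Fkbp5, Tsc22d3 and Mt1 in the 4 groups (x axis), with 1 point per array labelled with its replicate, bars for means and whiskers for the SD (n = 3). Nr1d2 and Hlf are highest and Nfil3 is lowest on WT day 3 replicate 1 and smSocs3-KO day 3 replicates 2 and 3, whereas Mt1 separates the smSocs3-KO day 3 arrays (8.65 to 9.05) from all others.

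Of 11 genes listed as outputs of the clock, all were tested. The mean challenge response had a median difference of 0.59 over these genes, and those that rose included Tspan4, a tetraspanin, by 1.54, Wee1, a kinase that holds cells before mitosis, by 1.52, and Klf10 by 0.72 (limma adjusted p between 0.00511 and 0.0122, with 22.7% of all genes called). Under the smSocs3-KO label Tspan4 rose by 1.94 (SE 0.33, limma adjusted p = 0.0228, with 2.45% of all genes called), and 7 of 11 outputs, Rgs16 among them, passed at an unadjusted p under 0.05 (23.8% of all genes). In WT limma called 0 of 11 (4.68% of all genes), with 4 at an unadjusted p under 0.05 (26.6%). Rgs16, a G protein signalling regulator, was not well above background on the 6 WT arrays or on 2 of 3 smSocs3-KO arrays before challenge. It entered the test only through the smSocs3-KO day 3 arrays, in which it therefore had to be high. Its place among the 7 and in the median of the 11 outputs thus carries no weight. With the 2 dim smSocs3-KO arrays before challenge set to their lowest signal well above background, Rgs16 was at least 10.72-fold higher at day 3. The measured difference under that label had a limma adjusted p of 0.038. Tspan4 ran from 2.69 to 2.99 on the arrays before challenge, was 4.82, 3.75 and 3.15 in WT at day 3 and was 5.11, 4.75 and 4.74 under the smSocs3-KO label at day 3, so that it was raised on smSocs3-KO replicate 5 as well.

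Per1 and other clock genes can respond to glucocorticoids, and 9 glucocorticoid targets were described beside them. Under the smSocs3-KO label 3 of 9 rose at day 3 (2.45% of all genes were called), Fkbp5 by 2.51 (SE 0.41, limma adjusted p = 0.0197) and the metallothioneins Mt2 by 2.45 (SE 0.25) and Mt1 by 1.83 (SE 0.17, each with an adjusted p of 0.00439), and in WT Mt2 alone rose, by 1.26 (SE 0.25, limma adjusted p = 0.0329, with 4.68% of all genes called). Summed over the 9 genes, the signal relative to the 75th percentile reached 159 to 215 on the WT arrays without challenge, 210 to 261 on those at day 3, 271 to 307 on the smSocs3-KO arrays before challenge and 941 to 1229 at day 3. Most of this sum came from Mt1 and Mt2, which made up 84.7% to 91.4% of it on the smSocs3-KO day 3 arrays and 56.8% to 79.3% on the other arrays. The other 7 genes summed to 81.3, 164 and 156 on smSocs3-KO day 3 replicates 2, 3 and 5 and to 53.3 to 98.1 on the other arrays. The 2 metallothioneins were thus high on all 3 smSocs3-KO day 3 arrays, as was Per1, whereas Arntl and Dbp divided these arrays. Per1 was as high (4.17) on smSocs3-KO replicate 1 before challenge, where Mt1 was lower (7.05) than on any smSocs3-KO day 3 array. Mt2, Fkbp5 and Sgk1 were likewise lower on that array than on any smSocs3-KO day 3 array. The other targets, Tsc22d3 (4.14), Zbtb16, Klf9, Errfi1 and Dusp1, were not, so that the 9 targets were divided there. A link between glucocorticoids and the clock genes was not tested. Of 10 immediate early genes, which are induced within minutes by many signals, limma called 0 in either single challenge response (3 at an unadjusted p under 0.05 in WT and 2 under the smSocs3-KO label, against 26.6% and 23.8% of all genes). In the mean response 7 of the 10 were higher, and Junb alone was called, at 1.81 (SE 0.41, limma adjusted p = 0.0135, with 22.7% of all genes called). Before challenge Junb was not well above background on WT replicate 2 and smSocs3-KO replicate 1, so that its rise rests in part on such values. At day 3 Arc was lower under the smSocs3-KO label (-3.48, SE 0.56, limma adjusted p = 0.0216, with 1.11% of all genes called).

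Marker genes of cell types and of cycling cells had signal on all day 3 arrays and differed between them. The summed signal of 9 cell cycle genes was 86.1, 86.7 and 12.04 on WT day 3 replicates 1, 3 and 4, of which only replicate 1 had low Arntl, and 32.2, 12.5 and 9.08 on smSocs3-KO day 3 replicates 2, 3 and 5, compared with 2.29 to 3.15 before challenge. For 7 macrophage markers it was 99.4, 70.4 and 41.3 on the WT day 3 arrays and 103, 99.2 and 94.2 on the smSocs3-KO day 3 arrays, compared with 35.8 to 52.5 before challenge. The 3 highest macrophage sums were on the 3 arrays with the lowest Arntl, but smSocs3-KO replicate 5 was close to them. By the mean log2 signal of the 7 markers smSocs3-KO day 3 replicate 5 was the highest (2.97). That mean was 2.94 on WT day 3 replicate 1 and 2.89 and 2.92 on smSocs3-KO day 3 replicates 2 and 3. The 8 smooth muscle markers summed to 1983, 2024 and 1709 on smSocs3-KO day 3 replicates 2, 3 and 5. They summed to 2102 to 2640 in WT at day 3 and to 2369 to 3551 on the arrays before challenge. By the mean log2 signal of the 8 markers the genotypes overlapped at day 3. That mean was 5.84, 5.89 and 5.46 on these smSocs3-KO arrays and 5.66, 5.59 and 6.36 on WT day 3 replicates 1, 3 and 4. The 8 fibroblast markers summed to 1243, 1527 and 1361 on smSocs3-KO day 3 replicates 2, 3 and 5, to 978 to 1191 in WT at day 3 and to 909 to 1063 before challenge. Sums of 7 adipocyte markers were 56.5, 229 and 304 on smSocs3-KO day 3 replicates 2, 3 and 5, where replicate 3, low in Arntl, lay nearer to replicate 5. On WT day 3 replicates 1, 3 and 4 they were 37.5, 155 and 87.7. Sums of 5 red blood cell markers were 1036, 412 and 89.7 on these smSocs3-KO arrays and 426, 927 and 567 on these WT arrays. The red blood cell sum was thus highest on smSocs3-KO replicate 2 but lowest of its group on WT replicate 1, both low in Arntl. Under the smSocs3-KO label limma called 3 of 7 macrophage markers and 1 of 8 fibroblast markers, all higher, against 2.45% of all genes. It called 0 of 8 smooth muscle markers and 1 of 9 cell cycle genes. At an unadjusted p under 0.05 there were 6 macrophage, 4 fibroblast and 5 smooth muscle markers and 9 cell cycle genes (23.8% of all genes). The 9 cell cycle genes were all higher at day 3. With this label the sums of macrophage and fibroblast markers were thus higher and that of smooth muscle markers lower at day 3 on all arrays, together with the differences of Npas2, Per2 and Tef, and the part of these cell types in those differences was not tested.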

How the data were processed

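Aortic total RNA was hybridised to 12 one-colour Agilent arrays. Per the file headers, the deposited processed signal is an intensity per spot from Feature Extraction 10.7.1.1 (the labels name 9.5.1.1), with the background subtracted. The authors also deposited a table of normalized intensity values, which was used as an alternative. Groups and replicates came from the labels. From the deposited intensity, log2 was taken, without control and outlier spots, replicate spots were averaged and each array's 75th percentile was subtracted. A probe entered (32283 of 55681) if some group had it well above background on each of its arrays, and a gene was represented by its brightest such probe. All 12 arrays were fitted with 4 group means in limma 3.58.1 (R 4.3.3), with Benjamini-Hochberg adjustment over 22761 genes. The fit was tested on simulated data. Correlations used permutation tests.

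The clock genes and gene lists were chosen with earlier results of these data known. All clock genes were named. Of other lists, genes called at an adjusted p under 0.05 were named, at most 4 per list and comparison, and 2 genes of these lists are not reported here. Where none was called, up to 3 with the largest differences could be named. For likeness, the 5 highest and 5 lowest r were named. The values of Hlf and Nr1d2 by array, and of single arrays generally, were singled out after they had been seen. Alternatives covered background correction, normalization, dim probes, choice of probe, variance moderation, arrays in the fit, slide, replicate number and leaving out single arrays. Positions of probes were read from the files (mm9), and exons on mm9 were not used here. Signal over background and 3 arrays per group limit the precision, and an exact permutation test of 3 against 3 arrays cannot go below p = 0.1.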

Additional observations from a re-analysis of the deposited data

How the results depend on the processing

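The number of clock genes called by limma at an adjusted p under 0.05 depended on the setting. In the smSocs3-KO challenge response it was 0 with the main setting, 2 with scaling to the median of each array (Npas2 and Per2), 1 with trend and robust moderation (Npas2) and 1 with only the arrays compared (Per2). In the mean challenge response it was 1, and 2 with median scaling (Npas2 and Per2) and 0 with a filter that asks for signal well above background on 12 of 12 arrays, where Npas2 and Cry1 were not tested. With that filter 19 of 28 pairs were correlated, none of them with Cry1 or Npas2. With the main setting it was 31 of 45, or 26 of 36 without the pairs of Cry1. With an array left out, the called genes numbered 0 to 1 in WT, 0 to 2 under the smSocs3-KO label and 1 to 3 in the mean response. The correlated pairs then numbered 26 to 33, with those of Cry1 counted. Without WT day 3 replicate 1 both Npas2 and Per2 were called under the smSocs3-KO label, without WT day 3 replicate 3 Per2 and without replicate 4 Npas2. In the mean response Arntl and Dbp were called beside Npas2 without smSocs3-KO day 3 replicate 5, Per2 without WT day 3 replicate 3 and Nr1d1 without WT day 3 replicate 4. Past the study's threshold at day 3 between genotypes there were 0 to 4 with an array left out, the 4 without WT day 3 replicate 1. Under no setting was a clock gene called in the genotype differences or the interaction.

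Whether arrays with the same replicate number belong together could not be told. The deviations of 11 same-numbered pairs correlated at -0.40 to 0.46 (median 0.073), and those of 43 differently numbered pairs at -0.44 to 0.48 (median -0.0056). Of 11 arrays, 4 correlated best with their own number. The replicate block raised the calls in the mean response to 4 (Arntl, Npas2, Per3 and Dbp), while the share of all genes called there went from 22.7% to 3.93%, and past the study's threshold to 6 under the smSocs3-KO label, 3 in the mean response, 3 at day 3 between genotypes and 5 in the interaction. With this block 2 differences changed sign, Per2 in WT (-0.16) and Arntl before challenge (-0.20).

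Other differences, not all of them near 0, changed sign elsewhere. In WT these were Per3 with normexp and quantile normalization (0.081), median scaling (0.092), quantile normalization (0.043) and the authors' table (0.046), and Clock (0.021) and Tef (0.026) with median scaling, which moved the median of all genes by 0.14 to 0.21 in the pairwise and mean comparisons. Clock before challenge was 0.13 with it. With the slide as a block, the genotype difference before challenge was -0.64 for Arntl, 0.48 for Npas2, 0.70 for Per1, 0.19 for Per2 and 0.93 for Per3, and that of Nr1d1 at day 3 was 0.20. With an array left out, signs changed in 26 further cases, none called: in WT Arntl (-1.33 to 0.016), Clock (-0.37 to 0.056), Per2 (-0.70 to 0.74), Per3 (-0.94 to 0.45), Cry1 (-0.51 to 0.85) and Tef (-0.56 to 0.13), before challenge Arntl (-0.15 to 0.63), Clock (-0.12 to 0.10), Per1 (-0.91 to 0.29) and Per3 (-1.13 to 0.082), at day 3 Nr1d1 (-0.62 to 0.19) and Dbp (-0.57 to 1.203), in the interaction Nr1d1 (-0.048 to 0.76) and in the mean response Per1 (-0.13 to 0.47). Signal over background limits Cry1 and Npas2.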
